A study of Homo sapiens with 18 samples.

Results

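Chromatin accessibility of the 4 human HOX gene clusters was examined in 46 of the 115087 regions of an ATAC-seq region table. A region was taken when it overlapped, in hg19, one of 4 windows: 27.12 to 27.26 Mb of chromosome 7 (HOXA), 46.6 to 46.815 Mb of chromosome 17 (HOXB), 54.325 to 54.455 Mb of chromosome 12 (HOXC) or 176.94 to 177.065 Mb of chromosome 2 (HOXD). The HOXA window held 19 regions, HOXB 5, HOXC 12 and HOXD 10. In ATAC-seq the Tn5 transposase inserts adapters into open DNA, so that reads pile up where chromatin is accessible. The libraries came from SCC1, SCC6 and SCC25, which are human head and neck squamous cell carcinoma (HNSCC) cell lines that the study chose as sensitive to cetuximab, an antibody that blocks the epidermal growth factor receptor (EGFR). Cells received cetuximab at 100 nM or PBS (untreated) every day for 5 days. Each group had 3 libraries except the SCC1 PBS group, of which replicates 1 and 3 were used and replicate 2 was not analysed here, for 17 libraries in all. Each line is a single cell line, and the labels do not say whether replicates were separate cultures, so p-values measure the spread between these libraries, which may be technical.

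HOX genes encode homeodomain transcription factors that give cells their position along the body axis. Vertebrates carry them in clusters in which genes of paralog groups 1 to 13 follow each other in order, with group 1 at the 3′ end and group 13 at the 5′ end, and the genes of the 3′ end are used earlier and further to the front of the embryo than those of the 5′ end. Polycomb complexes keep unused parts of a cluster closed, Trithorax complexes keep used parts open, and CTCF sites mark borders between them. HOX proteins bind DNA together with cofactors of the TALE class, such as PBX and MEIS proteins. Adult epithelia and carcinomas keep a position-dependent HOX pattern, and several lncRNAs, among them HOTAIR in HOXC and HOTTIP in HOXA, start inside the clusters.

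The clusters were unevenly represented in the table. Of the 38 listed HOX genes, 20 (52.6%) had a region within 1 kb of an annotated start site, called its promoter region here, against 70.1% of 20149 protein-coding genes. HOXA was covered almost throughout (9 of 10 listed genes), followed by HOXC (6 of 9) and HOXD (4 of 9), whereas in HOXB only HOXB9 of 10 genes had one. HOXB was also the sparsest cluster by density, with 2.33 regions per 100 kb against 4.25 in the 2 Mb on either side of it, while HOXA had 13.6 against 4.88, HOXC 9.23 against 5.38 and HOXD 8 against 4. A gene without a region is one at which no region was defined, which does not show that its chromatin was closed. Below, regions are numbered from the 3′ end of each cluster. They were 114 to 1096 bases wide, and their median GC content was 64.7% against 45.9% over all regions. Of the 46, 18 contained an annotated transcript start and 8 lay outside every annotated gene.

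Short sequence motifs were counted on both strands of hg19. The CTCF core (AGNNGGCGC) was found in 13 of 46 regions (28.3%), the AP-1 site (TGANTCA) in 7 (15.2%) and a PBX-HOX site (TGATNNAT) in 8 (17.4%). Among all table regions within 10% of a member's width the share averaged over the members was 11.5% for the CTCF core, 35.8% for AP-1 and 15.2% for PBX-HOX, and none of these differences in share was tested. The HOX regions also had the higher GC content, whose part was not tested. These are matches of letters and not bound sites.

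The sequences shown next are of 4 regions, picked after their values were seen, at which 1 line stood apart from both other lines. HOXD region 7 (chr2:176969009-176969267, plus strand, hg19) lies 65 bases from an annotated HOXD11 start, in an exon of HOXD11 with no coding or UTR annotation, and is printed because it was nearly closed in SCC6 and was the single HOX region at which limma called a difference between lines in the effect of cetuximab. HOXA region 4 (chr7:27152317-27152516) lies in an intron of HOXA3 and of the antisense RNA HOXA-AS2 and was open in SCC6. HOXC region 6 (chr12:54373530-54373730) and HOXC region 7 (chr12:54372858-54372977) are intergenic, 552 bases apart, between HOXC10 and HOXC11 and 4.79 and 4.12 kb upstream of HOTAIR, and are printed because the first was open in SCC6 and the second in SCC25. Capitals mark AP-1 matches, and neither of the other motifs occurred in them.
HOXD region 7: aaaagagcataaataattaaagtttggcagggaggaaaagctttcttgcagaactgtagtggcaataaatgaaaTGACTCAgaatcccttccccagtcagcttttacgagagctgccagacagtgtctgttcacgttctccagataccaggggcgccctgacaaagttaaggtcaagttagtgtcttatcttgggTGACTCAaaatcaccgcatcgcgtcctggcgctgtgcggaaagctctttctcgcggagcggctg
HOXA region 4: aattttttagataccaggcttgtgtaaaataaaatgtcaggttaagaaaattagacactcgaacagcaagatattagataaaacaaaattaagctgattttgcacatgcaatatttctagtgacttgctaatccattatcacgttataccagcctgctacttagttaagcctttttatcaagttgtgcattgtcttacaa
HOXC region 6: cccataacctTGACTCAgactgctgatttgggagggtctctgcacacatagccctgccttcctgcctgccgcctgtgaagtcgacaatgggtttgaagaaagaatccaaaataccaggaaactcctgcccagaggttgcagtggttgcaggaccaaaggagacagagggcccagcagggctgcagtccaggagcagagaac
HOXC region 7: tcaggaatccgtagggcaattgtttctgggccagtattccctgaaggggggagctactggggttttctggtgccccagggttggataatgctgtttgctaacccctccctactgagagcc
HOXD region 7 held 2 AP-1 matches and HOXC region 6 held 1. At least 1 match was present in 42.1% of the 12642 table regions within 10% of the width of HOXD region 7, and in 17.5% of the 32639 within 10% of that of HOXC region 6.

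The libraries held 2194851 to 15017130 reads in regions, with SCC1 the shallowest line (2194851 to 4171650). The values used are the deposited signal, a read count scaled by the authors between libraries, in which 1 read was worth 0.331 to 1.95 and an empty region was set to 1 read. All 10 squamous epithelial markers listed had a promoter region, as did 2 of 10 markers of other cell types (COL1A2 and PDGFRA). In SCC6 PBS libraries 6 of the 10 squamous markers were lower than in SCC1 and none higher (30.5% and 30.7% of all regions), among them KRT14 with a mean signal of 1.66 ± 0.885 (SD, n = 3) against 38.8 ± 5.16 (n = 2). The summed signal of the 10 was 575 to 673 in SCC6, 738 to 915 in SCC1 and 593 to 722 in SCC25 PBS libraries, and that of the other 2 markers 16.9 to 30.5, 82.0 to 121 and 63.5 to 90.8.

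Summed over the regions of a cluster, the order of lines in the PBS libraries was not the same in every cluster. The HOXA sum was 2128 ± 93.1 in SCC6 (SD, n = 3), 1600 ± 51.9 in SCC1 (n = 2) and 1008 ± 36.2 in SCC25 (n = 3). In HOXD the line highest in HOXA was lowest, with 346 ± 35.6 in SCC6 against 1068 ± 45.6 in SCC1 and 809 ± 75.6 in SCC25. HOXB had the same order as HOXD, with 58.2 ± 3.38 in SCC6, 214 ± 14.3 in SCC1 and 129 ± 11.5 in SCC25. HOXC was the cluster whose sums overlapped between lines, with 415 ± 53.0 in SCC1, 477 ± 48.0 in SCC6 and 511 ± 61.1 in SCC25. For HOXA, HOXB and HOXD no library of 1 line overlapped another line. Each of these 9 comparisons gave a two-sided exact permutation p of 0.1, the smallest these group sizes allow, and an adjusted p of 0.133 over the 12 comparisons of clusters, so that none could pass the threshold. The widest folds were in HOXB, 3.69-fold lower in SCC6 than in SCC1, and in HOXD, 3.10-fold lower.

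**Figure D1:**
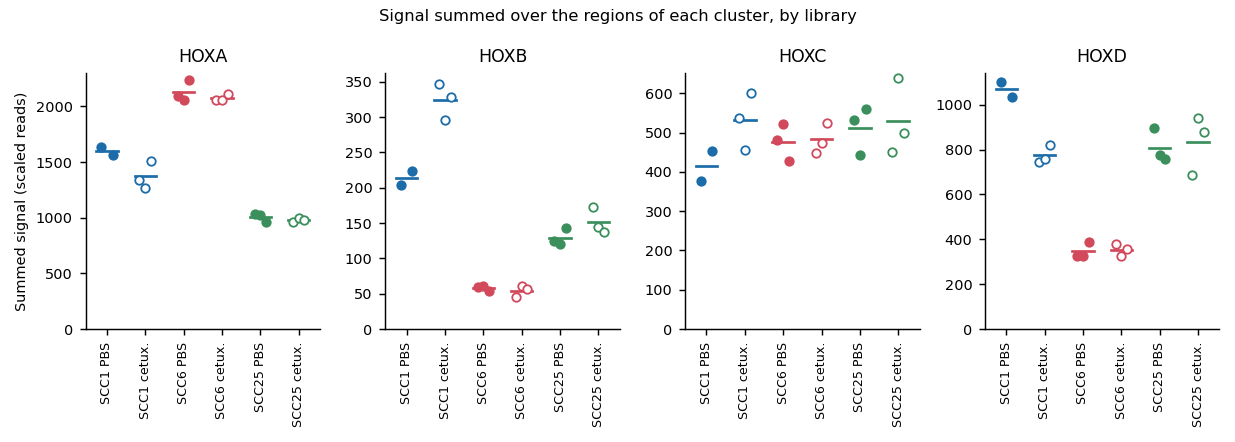
Summed accessibility signal (scaled reads, linear axis from 0) of the regions in each HOX cluster, 1 point per library, filled for PBS and open for cetuximab, with a bar at the group mean. SCC6 is highest in HOXA (2059 to 2234 in PBS libraries) and lowest in HOXB (54.4 to 60.9) and HOXD (324 to 387), and HOXC overlaps between lines.

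Region by region, limma called 31 of 44 tested HOX regions between PBS SCC6 and PBS SCC1, 23 of 44 between SCC25 and SCC1 and 33 of 44 between SCC25 and SCC6 (adjusted p under 0.05 over all regions). In SCC6 against SCC1, 13 were higher and 18 lower. In all 86315 regions tested 30.7% were higher and 30.5% lower, so wide differences between these lines were common in the whole table. In SCC25 against SCC1, 5 were higher and 18 lower (28.2% and 23.1% of all regions). In SCC25 against SCC6, 13 were higher and 20 lower (36.7% and 32.1%). The directions were split by cluster. SCC6 was higher than SCC1 at 10 of 19 HOXA regions and lower at 2, but lower at 5 of 5 HOXB and 8 of 9 HOXD regions and higher at none. SCC25 was lower than SCC6 at 17 of 19 HOXA regions and higher at the other 2, while it was higher at 2 of 5 HOXB and 5 of 9 HOXD regions and lower at none. All PBS libraries of SCC6 lay above those of both other lines at 16 of 46 regions (26.6% of all regions) and below them at 13 (18.7%). SCC1 lay above both at 13 (15.5%) and below at 1 (12.2%), and SCC25 above at 5 (20.8%) and below at 13 (18.6%).

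**Figure D2:**
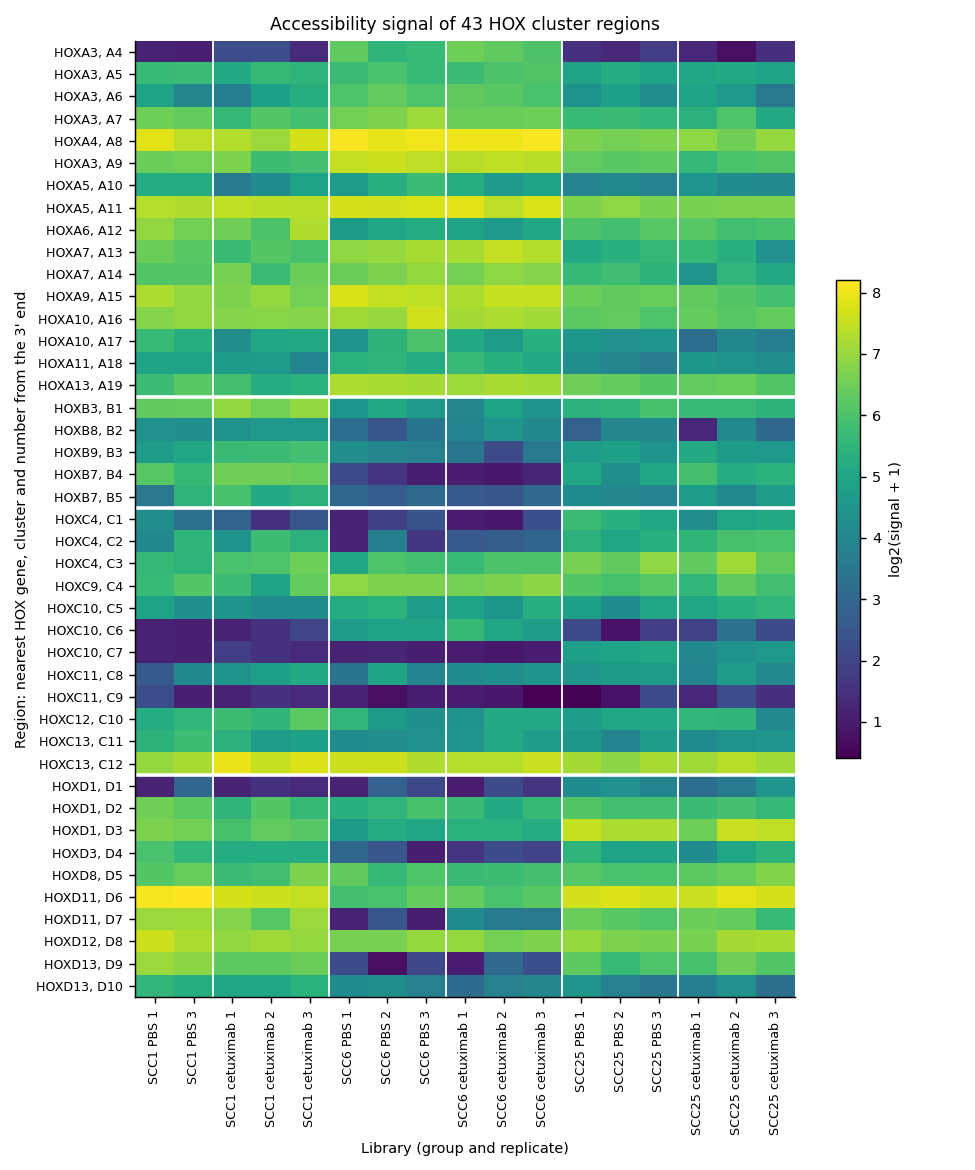
Signal of 43 HOX regions (rows, from the 3′ to the 5′ end of HOXA, HOXB, HOXC and HOXD, each named by the nearest HOX gene, its cluster letter and its number) in the 17 libraries (columns), as log2(signal + 1). SCC6 is dark at the HOXD13 region (0.669 to 3.62 in PBS libraries) and at HOXD region 7 (1.09 to 4.68), and HOXA region 4 and HOXC regions 6 and 7 are bright in 1 line each.

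The 5′ end of HOXD carries the HOXD11 to HOXD13 genes used in limbs and the hindmost body. It held HOXD regions 7 and 9, where SCC6 lay furthest below both other lines. This did not hold for the whole 5′ end. SCC6 and SCC25 PBS means were close at HOXD region 8 (106 and 108) and HOXD region 10 (16.2 and 14.8). The HOXD13 promoter region (HOXD region 9, chr2:176957475-176958005, over UTR and coding sequence of HOXD13) had a signal of 130 and 114 in SCC1, 3.62, 0.669 and 3.26 in SCC6 and 75.7, 51.2 and 66.2 in SCC25 PBS libraries. SCC6 lay far below both other lines. The log2 difference of SCC6 from SCC1 was -5.26 (SE 0.42, adjusted p = 3.4e-08), and that of SCC25 from SCC6 was 4.33 (SE 0.38, adjusted p = 5.8e-08). Only 7 reads lay behind the 3 SCC6 values, which puts SCC1 at 56.2-fold over SCC6 with a 95% counting interval of 26.8 to 142 (exact, counting error only). SCC25 did not pass the test against SCC1 (-0.93, SE 0.42, adjusted p = 0.0780).

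HOXD11 had 2 regions, which behaved alike in direction but not in size. HOXD region 7, at the upstream start shown above, had 131 and 133 in SCC1, 1.21, 4.68 and 1.09 in SCC6 and 86.3, 72.8 and 65.3 in SCC25. The SCC6 values rested on 9 reads, and SCC1 was 47.6-fold over SCC6 (counting interval 24.6 to 106). It was also the HOXD region with the highest mean signal per kb (242). HOXD region 6 (chr2:176971290-176972053), the HOXD11 promoter region which holds a HOXD11 start and UTR sequence, had 273 and 295 in SCC1, 59.2, 62.2 and 81.6 in SCC6 and 202, 220 and 198 in SCC25. It kept a mean signal of 67.7 ± 12.1 in SCC6 against 284 ± 15.3 in SCC1, a log2 difference of -2.07 (SE 0.15, adjusted p = 1.4e-08), and was also lower in SCC25 than in SCC1 (-0.46, SE 0.15, adjusted p = 0.0206), a call lost in 5 of 16 alternatives. Between the HOXD13 and HOXD11 regions, HOXD region 8 (chr2:176962113-176962760), an intergenic region 1.76 kb from HOXD12, had a peak in 15 of 17 libraries, with 195 and 152 in SCC1, 96.7, 96.4 and 125 in SCC6 and 124, 101 and 99.2 in SCC25. There SCC6 and SCC25 were both lower than SCC1, by -0.71 (SE 0.18, adjusted p = 0.00260) and -0.67 (SE 0.18, adjusted p = 0.00475), far less than at its neighbours in SCC6.

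Further to the 3′ end of HOXD, SCC6 was again low at HOXD region 4 (chr2:177005302-177005635, an intron of HOXD3), with 7.25, 4.68 and 1.09 against 61.2 and 46.9 in SCC1 and 43.3, 29.6 and 30.5 in SCC25. HOXD region 3 (chr2:177042842-177043768), over a start of the lncRNA HAGLR and 0.397 kb from that of HAGLROS, was highest in SCC25, with 184, 151 and 151 against 101 and 92.7 in SCC1 and 24.2, 36.1 and 31.5 in SCC6. All 3 line pairs passed there, with SCC25 against SCC6 at 2.38 (SE 0.18, adjusted p = 1.3e-08). The HOXD8 promoter region (HOXD region 5, chr2:176994730-176995357) did not pass in any of the 3 pairs (smallest adjusted p = 0.283), with mean signals of 77.0 ± 9.54, 64.2 ± 14.4 and 65.2 ± 5.57 in SCC1, SCC6 and SCC25. The HOXD1 promoter region (HOXD region 2, chr2:177053143-177053516) was lower in SCC6 than in SCC1 alone (-0.77, SE 0.23, adjusted p = 0.00804). The surroundings of HOXD did not show the same shift, since the median difference of SCC6 from SCC1 over 122 tested regions within 2 Mb was 0.20 and that within the cluster -1.65. With each library's flank median taken off, 8 of 9 HOXD regions were still called lower.

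**Figure D3:**
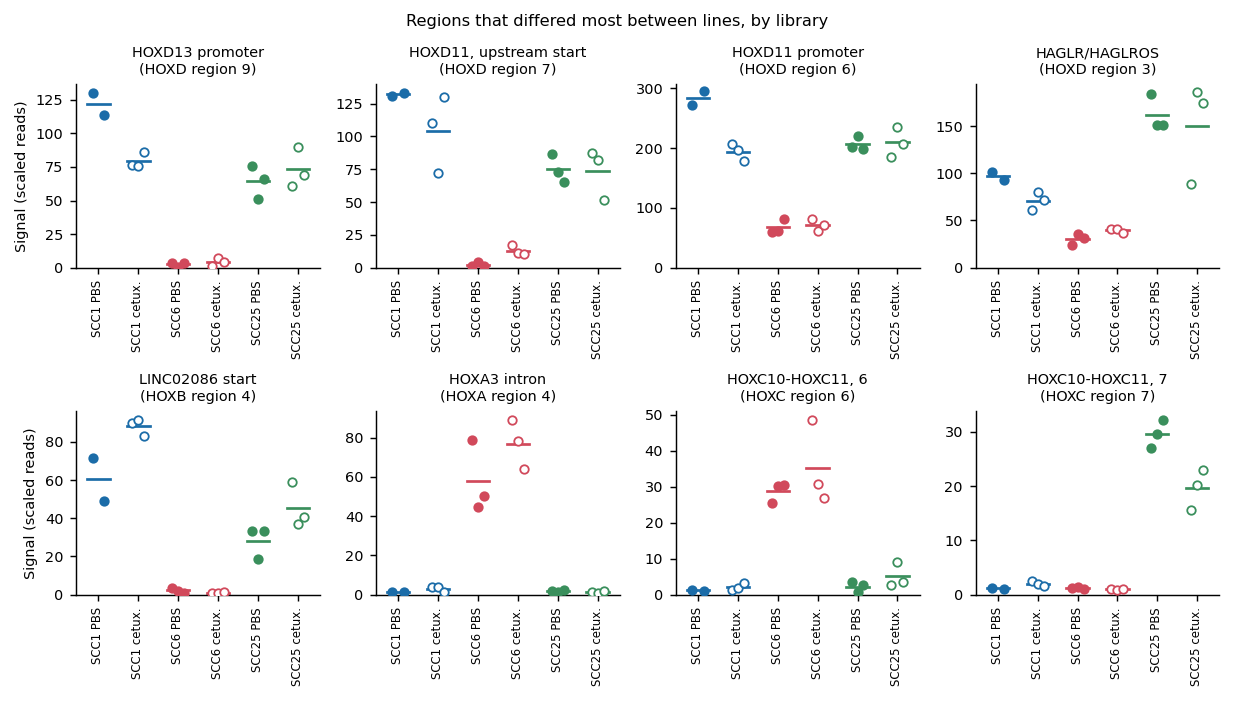
Signal (scaled reads, linear axes from 0) of 8 regions by library, filled for PBS and open for cetuximab, with bars at group means. In the top row SCC6 lies lowest in every panel, at 0.669 to 3.62 for the HOXD13 region and 1.09 to 4.68 for HOXD region 7 in PBS libraries, and the bottom row shows the LINC02086 start at 1.09 to 3.62 in SCC6, the HOXA3 intron and HOXC region 6 open in SCC6, and HOXC region 7 open in SCC25.

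HOXB, the cluster of which most genes had no region, had its largest difference outside the coding genes. HOXB region 4 (chr17:46724004-46724362) holds a start of the lncRNA LINC02086 and lies 23 bases from one of LINC03057, between HOXB9 (20.3 kb) and HOXB13 (81.8 kb), with the start of a long HOXB7 transcript 13.1 kb away. Its signal was 71.6 and 49.1 in SCC1, 3.62, 2.01 and 1.09 in SCC6 and 33.2, 18.7 and 33.1 in SCC25. SCC6 rested on 7 reads and lay below both other lines, with SCC1 27.5-fold over it (counting interval 12.9 to 70.3) and a log2 difference of -4.29 (SE 0.47, adjusted p = 1.0e-06). The other 4 HOXB regions were lower in SCC6 than in SCC1 by smaller amounts, from -0.86 at the HOXB9 promoter region (HOXB region 3, chr17:46703249-46703451, coding exon, adjusted p = 0.0416) to -1.60 at HOXB region 1 (chr17:46662761-46663380, introns of HOXB3 and HOXB-AS3, adjusted p = 9.1e-05). The HOXB9 call was lost in 8 of 16 alternatives, DESeq2 among them, and that of HOXB region 2 in 5 of 14. The median of 164 tested regions within 2 Mb was -0.10 in the same comparison, and with each library's flank median taken off 3 of 5 HOXB regions were still called lower.

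HOXA had the most regions, and SCC6 was usually the highest and SCC25 the lowest line there. The HOXA4 promoter region (HOXA region 8, chr7:27169747-27170842) had 230 and 172 in SCC1, 278, 240 and 260 in SCC6 and 103, 93.7 and 102 in SCC25. The HOXA5 promoter region (HOXA region 11, chr7:27182605-27183559) had 160 and 155, then 210, 204 and 218, then 103, 118 and 98.4. The HOXA7 promoter region (HOXA region 13, chr7:27195683-27196445) had 87.2 and 73.7, then 120, 128 and 145, then 34.7, 39.7 and 47.5. In each of these the lines did not overlap, and SCC25 was below SCC6 by -1.37 (SE 0.13), -0.98 (SE 0.12) and -1.67 (SE 0.17) on the log2 scale.

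Towards the 5′ end of HOXA the same order of means held at 3 of 5 regions. The HOXA9 promoter region (HOXA region 15, chr7:27208714-27209538) had 150 and 122 in SCC1, 213, 180 and 175 in SCC6 and 87.4, 78.6 and 84.0 in SCC25. It also spans MIR196B (chr7:27209099-27209183), a microRNA whose family targets HOX transcripts, and RefSeq gives its mature form with the seed in capitals, a seed that is also that of miR-196a-5p from the HOXB and HOXC clusters, where no member region covered the hairpin.
hsa-miR-196b-5p: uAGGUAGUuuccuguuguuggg
hsa-miR-196a-5p: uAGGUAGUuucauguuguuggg
The HOXA10 promoter region (HOXA region 16, chr7:27212621-27213415, coding exon) had 109 and 122, then 137, 128 and 200, then 74.6, 79.3 and 66.2, and passed only where SCC25 was compared. HOXA region 17 (chr7:27219471-27219672), 0.208 kb from a HOXA10 start, had means of 43.7 ± 8.11 in SCC1, 42.5 ± 21.8 in SCC6 and 21.0 ± 1.40 in SCC25, with SCC6 not past the threshold against SCC1 (-0.17, SE 0.38, adjusted p = 0.723). The HOXA11 promoter region (HOXA region 18, chr7:27223989-27224237), which holds a start of HOXA11-AS and coding sequence of HOXA11, was low throughout, with 29.9 and 29.0, then 41.1, 44.2 and 35.9, then 18.8, 15.1 and 11.9. At HOXA13, SCC1 had the lowest mean. Its promoter region (HOXA region 19, chr7:27239716-27240132), where HOTTIP starts, had 53.3 and 72.6 in SCC1, 152, 148 and 141 in SCC6 and 90.8, 81.5 and 70.4 in SCC25, a log2 difference of 1.23 between SCC6 and SCC1 (SE 0.18, adjusted p = 2.5e-05), while SCC25 did not pass against SCC1 (0.37, SE 0.18, adjusted p = 0.103).

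Other HOXA regions stood further apart, in either direction. The HOXA6 promoter region (HOXA region 12, chr7:27190219-27190655, an exon of HOXA6 and HOXA-AS3) was lowest in SCC6, with 24.2, 31.4 and 37.0 against 121 and 92.7 in SCC1 and 64.4, 58.4 and 71.3 in SCC25, a log2 difference from SCC1 of -1.77 (SE 0.23, adjusted p = 8.9e-06). It lies between the HOXA5 and HOXA7 promoter regions, which were highest in SCC6. HOXA region 4, the HOXA3 intron shown above, had 78.5, 44.8 and 50 in SCC6 and was at the floor in SCC1 (1.30 and 1.12, 1 read each) and near it in SCC25 (1.88, 1.44 and 2.54). SCC6 was at least 15.9-fold higher than SCC1, with SCC1 put at 3 reads per library, and 28.7-fold higher than SCC25 (counting interval 15.2 to 60.8). A peak was called there in 5 of 6 SCC6 libraries and in none of the other lines. HOXA region 6 (chr7:27153731-27153970), in the same introns, was higher in SCC6 than in SCC1 by 1.70 (SE 0.32, adjusted p = 0.000295), with mean signals of 70.6 ± 7.25 in SCC6, 22.2 ± 10.9 in SCC1 and 21.9 ± 4.97 in SCC25.

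The surroundings of HOXA differed in the same direction. The median difference of SCC25 from SCC6 was -0.96 over 162 tested regions within 2 Mb and -1.17 within the cluster, and that of SCC6 from SCC1 was 0.39 and 0.42. With each library's flank median taken off, the number of HOXA regions called went from 12 to 6 for SCC6 against SCC1, from 13 to 5 for SCC25 against SCC1 and from 19 to 8 for SCC25 against SCC6. HOXA region 4 and the HOXA6 promoter region kept their call in the first and last of these. For HOXB the flank median of SCC25 from SCC1 was -0.50 beside -0.68 in the cluster. The 1 HOXB region called there did not stay called once the flank median was taken off. For SCC25 against SCC6 the number of HOXB regions called went from 2 to 4 instead, all higher in SCC25.

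**Figure D4:**
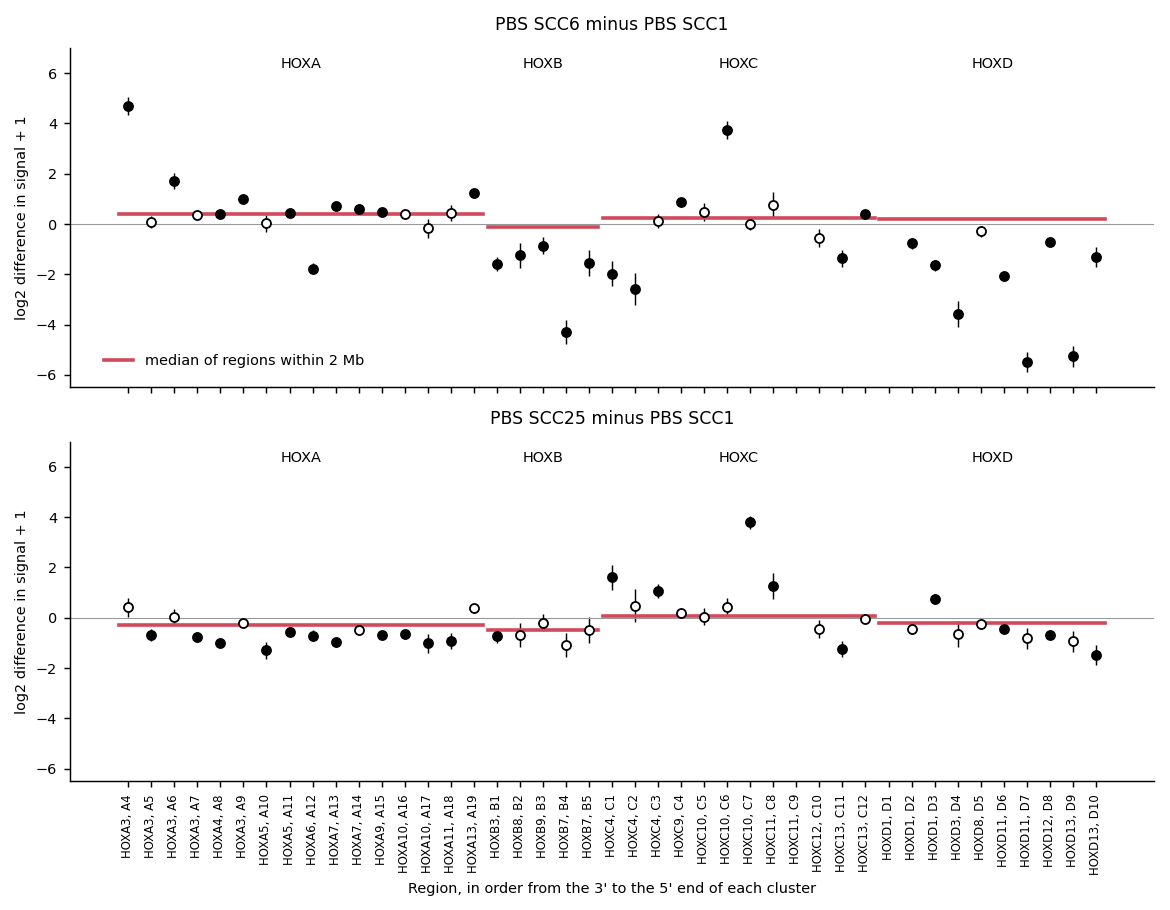
log2 difference in signal + 1 (points, with standard errors) of PBS SCC6 and of PBS SCC25 from PBS SCC1 at each tested HOX region in order along the clusters, filled where the limma adjusted p was under 0.05, with a red line at the median of the regions within 2 Mb. Most HOXA points of SCC6 lie near their flank line of 0.39, with HOXA region 4 at 4.69 and HOXA region 12 at -1.77, whereas HOXB and HOXD points of SCC6 lie below theirs.

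HOXC had sums that overlapped between lines but regions that differed. HOXC regions 6 and 7, the neighbours upstream of HOTAIR, were each open in 1 line. HOXC region 6 had 25.4, 30.1 and 30.5 in SCC6, 1.30 and 1.12 in SCC1 and 3.39, 0.721 and 2.54 in SCC25, which makes SCC6 at least 7.90-fold higher than SCC1 and 11.6-fold higher than SCC25 (counting interval 6.49 to 22.7). HOXC region 7 had 27.1, 29.6 and 32.2 in SCC25, 1.30 and 1.12 in SCC1 and 1.21, 1.34 and 1.09 in SCC6. SCC25 was at least 8.17-fold higher than SCC1 and 23.4-fold higher than SCC6 (counting interval 8.97 to 87.2). The level of both was modest, at mean signals of 28.6 ± 2.84 and 29.6 ± 2.55 in their open line.

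At the HOXC regions nearest to a start of HOXC4, a gene of the 3′ end, SCC25 had the highest mean. HOXC region 1 (chr12:54445113-54445384, HOXC4 intron) had 53.1, 39.7 and 33.1 in SCC25, 18.2 and 8.93 in SCC1 and 1.21, 2.68 and 4.35 in SCC6, and all 3 pairs passed. HOXC region 2 (chr12:54430706-54430953, HOXC4 intron) was low in SCC6, with 1.21 to 12.7, against 15.6 and 44.7 in SCC1 and 41.5, 31.7 and 39.9 in SCC25. The HOXC4 promoter region (HOXC region 3, chr12:54411543-54412186) lies in introns of both HOXC4 and HOXC6. It is 0.828 kb from a HOXC4 start upstream of the one near HOXC region 2. HOXC region 3 had 97.6, 78.6 and 119 in SCC25, 48.1 and 43.5 in SCC1 and 32.6, 66.2 and 56.6 in SCC6, so that SCC25 was above both. At HOXC region 4 (chr12:54389079-54389655), the promoter region of HOXC9 that also lies within 1 kb of a HOXC6 start, SCC6 was highest, with 116, 102 and 101 against 49.4 and 68.1 in SCC1 and 68.2, 60.6 and 71.3 in SCC25 (SCC6 against SCC1 0.86, SE 0.19, adjusted p = 0.00111). The HOXC10 promoter region did not pass in any pair (smallest adjusted p = 0.251).

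HOXC13, at the 5′ end, which encodes a regulator of hair and nail keratins, had the promoter region (HOXC region 12, chr12:54332138-54332965) that was the single HOX region with a peak in all 17 libraries. Its signal was 125 and 149 in SCC1, 192, 194 and 153 in SCC6 and 143, 114 and 145 in SCC25, with SCC6 above SCC1 (0.39, SE 0.16, adjusted p = 0.0438) and SCC25 below SCC6 (-0.42, SE 0.14, adjusted p = 0.0154). The first call was lost in 11 of 16 alternatives, among them DESeq2, centring on the median and leaving out SCC1 PBS replicate 1, and the second in 5 of 16. HOXC region 11 (chr12:54333600-54333713), in the HOXC13 intron, was highest in SCC1 instead, with 42.9 and 54.7 against 16.9 to 19.6 in SCC6 and 14.4 to 24.6 in SCC25. The HOXA3 promoter region (HOXA region 5, chr7:27153037-27153288) was lower in SCC25 than in SCC1 (-0.70, SE 0.24) and SCC6 (-0.78, SE 0.21), the first of these calls being lost in 5 of 16 alternatives. It had the highest mean signal of 3 regions within 1 kb of a HOXA3 start, and the others differed from it. These, HOXA regions 4 and 6, were higher in SCC6 than in SCC1 (4.69 and 1.70). SCC25 did not pass against SCC1 at either (0.41 and 0.04).

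Genes that act with or on HOX clusters were counted by their own promoter regions. Beside these counts, the shares of all regions called higher and lower were 30.7% and 30.5% for SCC6 against SCC1, 28.2% and 23.1% for SCC25 against SCC1, and 36.7% and 32.1% for SCC25 against SCC6. Of 7 TALE cofactor genes with a region, 3 were higher and 2 lower in SCC6 than in SCC1, 2 and 2 in SCC25 than in SCC1 and 2 and 4 in SCC25 than in SCC6. MEIS2 was lower in SCC25 than in SCC1 by -1.16 (SE 0.16) on the log2 scale. Of 12 Polycomb genes none was higher in SCC25 than in either line, 5 were lower than in SCC1 and 8 lower than in SCC6. Their median difference was -0.29 from SCC1 and -0.66 from SCC6. The median from SCC6 was 0.06 over all regions, which are not only promoters, and promoters as a class were not compared. It was -0.45 for the TALE cofactors, -0.08 for the upstream regulators and -0.00 for the Trithorax and H3K27 demethylase genes. EED, a core part of the complex that methylates H3K27, had mean signals of 291 ± 2.49 in SCC1, 193 ± 23.8 in SCC6 and 95.7 ± 10.2 in SCC25, and RNF2, the ubiquitin ligase of the other complex, 99 ± 8.98, 81.5 ± 11.1 and 33.7 ± 8.65. Of 8 tested Trithorax and H3K27 demethylase genes 3 were higher and 2 lower in SCC6 than in SCC1, 4 and 1 in SCC25 than in SCC1, and 2 and 3 in SCC25 than in SCC6. Of 8 upstream regulators 3 (RARG, CYP26B1 and GMNN) were higher and 1 lower in SCC6 than in SCC1, 3 and 1 in SCC25 than in SCC1 and 2 and 3 in SCC25 than in SCC6. RARB, a retinoic acid receptor gene that itself responds to retinoic acid and the 1 that was lower in SCC6, had 55.7 ± 3.34 in SCC1, 2.44 ± 2.61 in SCC6 and 19.9 ± 6.78 in SCC25 (SCC6 against SCC1 -4.30, SE 0.55, adjusted p = 5.9e-06). CDX2, a homeobox gene of the gut that acts upstream of HOX genes, had 34.9 ± 7.15 in SCC25, 2.88 ± 2.24 in SCC1 and 1.43 ± 0.5 in SCC6 (SCC25 against SCC6 3.88, SE 0.34, adjusted p = 7.0e-08). The SCC6 means of RARB and CDX2 and the SCC1 mean of CDX2 lay near the 1-read floor, which bounds these differences.

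Few HOX regions were called between cetuximab and PBS libraries. In SCC1, 1 of 41 tested HOX regions was higher and 2 were lower after cetuximab, beside 4.57% and 6.56% of 86321 regions. The HOXC13 promoter region rose from 125 and 149 to 254, 183 and 222 (0.67, SE 0.20, adjusted p = 0.0152), with no overlap. The HOXD11 promoter region (HOXD region 6) fell from 273 and 295 to 207, 197 and 178 (-0.55, SE 0.19, adjusted p = 0.0359), also with no overlap. The third called region lies in HOXA. None of the 3 calls held in every alternative. That of the HOXC13 region was lost in 4 of 13, among them the removal of the GC trend. That of the HOXD11 region was lost in 8 of 13, among them edgeR, DESeq2, no filter on low regions and centring on the median. By library, without SCC1 PBS replicate 1 no HOX region was called, and without SCC1 PBS replicate 3 the HOXC13 region had an adjusted p of 0.0791 and the HOXD11 region one of 0.343. Leaving out SCC1 cetuximab replicate 1 also ended both calls (adjusted p = 0.136 and 0.0634). Those next in order were, upward, HOXC region 8 (chr12:54367604-54367746, HOXC11 coding exon, 1.45, SE 0.55, adjusted p = 0.0648) and HOXB region 5 (chr17:46755931-46756104, LINC02086 intron, 1.02, SE 0.40, adjusted p = 0.0788) and, downward, the HOXD13 promoter region (-0.61, SE 0.26, adjusted p = 0.107).

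The regions of HOXB and of HOXD leaned 1 way each in SCC1, as did the median of their surroundings. All 5 HOXB regions had a positive difference (median 0.56, flank 0.53) and all 9 tested HOXD regions a negative one (median -0.45, flank -0.33), while the HOXA median was -0.35 (flank -0.44) and the HOXC median 0.43 (flank 0.40), against -0.09 over all regions. The summed HOXD signal was 1036 and 1101 in the PBS and 744 to 820 in the cetuximab libraries of SCC1, and that of HOXB 204 and 224 against 296 to 347. Each had an exact permutation p of 0.1, the smallest that 2 against 3 libraries allow. The cetuximab libraries of SCC1 held 2194851 to 3665345 reads and its PBS libraries 3577180 and 4171650, and the part of depth in these shifts was not tested.

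**Figure D5:**
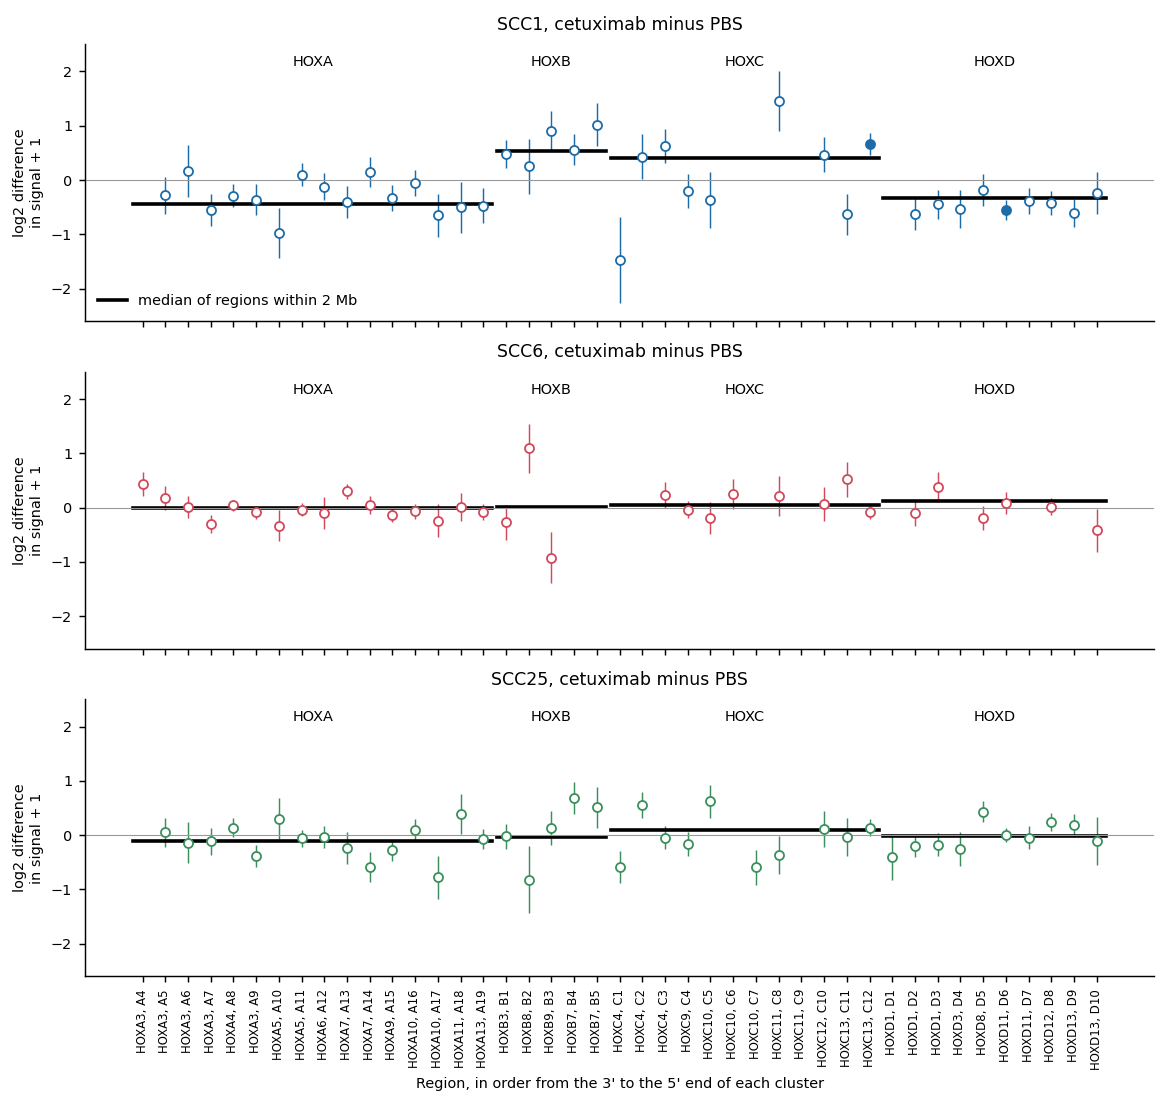
log2 difference in signal + 1 between cetuximab and PBS libraries (points, with standard errors) at each tested HOX region of SCC1, SCC6 and SCC25, in order along the clusters, filled where the limma adjusted p was under 0.05, with a black line at the median of the regions within 2 Mb. In SCC1 all points lie above 0 in HOXB (flank 0.53) and below 0 in HOXD (flank -0.33), and of the regions drawn HOXC region 12 and HOXD region 6 are filled, while no point is filled in SCC6 or SCC25.

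In SCC6 none of 36 tested HOX regions was called by limma, although 16.9% of all regions were higher and 10.6% lower after cetuximab, and 3 of the 36 had an unadjusted p under 0.05. edgeR and DESeq2 on the recovered reads called none as well. The nearest to the threshold by limma were HOXB region 2 (1.09, SE 0.45, adjusted p = 0.0632) and the HOXA7 promoter region (0.30, SE 0.14, adjusted p = 0.0958). HOXB region 2 (chr17:46696089-46696258) lies in an intron of HOXB7, but its nearest start is that of HOXB8, 3.44 kb away. It had 8.46, 4.68 and 9.79 in PBS and 14.1, 21.4 and 15.5 in cetuximab libraries. The SCC6-specific HOXA region 4 had 88.9, 78.0 and 63.8 after cetuximab (0.44, SE 0.22, adjusted p = 0.126). Downward, the first was the HOXB9 promoter region (-0.92, SE 0.47, adjusted p = 0.134). The HOXD13 promoter region had at most 7.43 after cetuximab, with values that overlapped the PBS values, and was too low to enter the test.

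HOXD region 7, at the upstream HOXD11 start, was left out of the SCC6 fit by the filter on low values. It entered the interaction fit, filtered on the mean over all lines, where SCC1 and SCC25 were high. There it was the single HOX region of 43 with an interaction of line and treatment (F-test, adjusted p = 0.00101, beside 13.2% of all regions). In SCC6 it had 1.21, 4.68 and 1.09 in PBS libraries, 9 reads in all, with 1.21 and 1.09 at the 1-read floor. After cetuximab it had 17.2, 11.1 and 10.6 there, with no overlap. In SCC1 it had 131 and 133 against 110, 72.0 and 130, and in SCC25 86.3, 72.8 and 65.3 against 87.2, 82.1 and 51.4, and neither line passed the limma test (adjusted p = 0.341 and 0.942). Without the filter the SCC6 difference was 2.20 (SE 0.55, adjusted p = 0.00304). edgeR and DESeq2 also called the interaction there (adjusted p = 0.00429 and 0.000727). They called it as well at the HOXC13 promoter region (0.00971 and 0.0132) and the HOXB9 promoter region (0.0295 and 0.0348), where limma gave adjusted p = 0.0633 and 0.0565. The SCC6 cetuximab values of HOXD region 7 stayed under every value of the other lines, and no SCC6 library had a peak there.

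In SCC25 none of 43 tested HOX regions was called, where 0.0405% of all regions were higher and 0.275% lower, 5 of the 43 had an unadjusted p under 0.05, and edgeR and DESeq2 called none. The smallest adjusted p was 0.291, at HOXB region 4 (33.2, 18.7 and 33.1 in PBS, 59.1, 37.1 and 40.7 in cetuximab libraries, 0.68, SE 0.29). Over all lines together none of 43 was called (5.14% of all regions higher and 7.04% lower), with 8 at an unadjusted p under 0.05 and none called by edgeR or DESeq2. HOXC region 1 was nearest, at -0.77 (SE 0.28, adjusted p = 0.0737), and upward HOXC region 6, at 0.54 (SE 0.24, adjusted p = 0.127). The summed HOXA signal was lower after cetuximab by a mean log2 difference over lines of -0.10 (exact permutation within lines, p = 0.0330, adjusted over the 4 clusters 0.107), with -0.22 in SCC1, -0.04 in SCC6 and -0.04 in SCC25, and so was not past the threshold after adjustment. HOXB had 0.23 (p = 0.0535), HOXC 0.14 (p = 0.178) and HOXD -0.13 (p = 0.185), by the same exact permutation test.

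Peak calls are MACS2 peaks called in each library, and their number moved with depth. A peak in 1 or more libraries of a line was found at 26 of 46 regions in SCC1 (5 libraries), 35 in SCC6 (6) and 34 in SCC25 (6). In single libraries the number ran from 3 (6.52% of HOX regions, beside 10.8% of all regions) in SCC1 cetuximab replicate 2, the shallowest, to 35 (76.1%, beside 75.6%) in SCC6 cetuximab replicate 3, the deepest. HOXA regions with a peak numbered 11 to 16 in SCC6, 7 and 8 in SCC1 and 6 to 12 in SCC25 PBS libraries, while HOXD regions with a peak numbered 3 to 5, 6 and 7, and 4 to 9. SCC6 thus had more peaks than SCC1 in HOXA and fewer in HOXD, and the depth of the PBS libraries was 4098164 to 7260488 reads in SCC6 and 3577180 and 4171650 in SCC1.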

How the data were processed

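ATAC-seq was read from 17 libraries of SCC1, SCC6 and SCC25 cells. Per the labels and methods, the authors trimmed reads with Trim Galore 0.5.0, aligned them to hg19 with Bowtie2 2.3.2, dropped mitochondrial and duplicate reads (Picard 2.18) and those of low quality (SAMtools 1.9), ran MACS2 for broad peaks on each library and built the region table with DiffBind. The table deposited by the authors holds a scaled signal per region and library, in which values are whole multiples (within 0.001) of 1 read, with empty regions set to 1 read. This keeps low values above 0 and bounds any fold against them. The deposited peak lists hold a score, a fold enrichment ratio and −log10 p-values and q-values as the authors' caller gave them, and whether read positions were shifted for Tn5 is not given in the sources used here.

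Log2(signal + 1) was fitted with limma 3.58.1 (trend, robust) in R 4.3.3 over all regions except the 25% of lowest mean, with Benjamini-Hochberg adjustment and a threshold of 0.05. PBS libraries were compared between lines, cetuximab with PBS within each line and over lines with line as a term, and the interaction of both. edgeR 4.0.16 and DESeq2 1.42.0 on recovered reads, other scalings, filters and pseudocounts, a GC trend, a flank median and leaving out each library were alternatives. A fold change on this scale understates that of low regions. Cluster sums used exact permutation tests, two-sided. The limma fits were checked on simulated counts with changes placed only in regions above the median signal, so the check does not cover low regions. Gene positions came from GENCODE v44lift37 and miRNA sequences from RefSeq. Promoter regions lie within 1 kb of a start, and where several did so, that of highest mean signal was taken. The text names promoter regions by the number and size of their line differences, regions in which 1 line lay apart from both others, and the regions nearest the threshold under cetuximab. Members, lists and this rule were chosen with earlier results of these data known. Replicates correlated at 0.920 to 0.973 and differed by more than sampling noise (chi-square per degree of freedom 1.61 to 3.13). Libraries held 13035 to 101272 peaks. Counting intervals cover counting error only. Of the SCC1 PBS group, replicate 2 was not analysed here. One gene of the HOXA cluster is not reported here, and 3 HOXA regions near it enter counts and sums only.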

Additional observations from a re-analysis of the deposited data

Results flagged for a closer look

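HOXD region 7 (HOXD11, upstream start) was picked out because the effect of cetuximab differed between lines there by a test of the difference itself, the limma interaction of line and treatment, whose p, adjusted over the whole table, was 0.00101. Over 25 alternatives this adjusted p ran from 5.5e-05 to 0.00608, but these draw on the same low SCC6 values and are no independent support. The region failed the filter on low values in the SCC6 fit. It entered the interaction fit, filtered on the mean over all lines, where SCC1 and SCC25 were high. The signal in SCC6 was 1.21, 4.68 and 1.09 in PBS and 17.2, 11.1 and 10.6 in cetuximab libraries. These PBS values rested on 9 reads, with 1.21 and 1.09 at the floor of 1 read, and no SCC6 library had a peak there. In SCC1 the signal was 131 and 133 against 110, 72.0 and 130. The SCC25 mean was 74.8 ± 10.6 in PBS and 73.5 ± 19.4 in cetuximab libraries.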

How the results depend on the processing

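Of the HOX regions called between PBS lines, 18 of 31 (SCC6 against SCC1), 8 of 23 (SCC25 against SCC1) and 21 of 33 (SCC25 against SCC6) were called under every alternative. With the flank median subtracted SCC25 against SCC1 gave 12 calls, and 6 HOXA differences changed sign, to -0.18 (HOXA4), -0.14 (HOXA5) and -0.08 (HOXA9) for SCC6 against SCC1 and to 0.13 (HOXA3, region 5), 0.06 (HOXA10, region 17) and 0.05 (HOXA13) for SCC25 against SCC6. Leaving out 1 library gave 23 to 30, 15 to 25 and 30 to 34 calls for the 3 line pairs, and the 15 came without SCC1 PBS replicate 3. For cetuximab it gave 0 to 5 calls in SCC1, 0 to 2 in SCC6, 0 to 0 in SCC25, 0 to 1 over all lines and 1 to 2 for the interaction. In SCC1 there were 0 without SCC1 PBS replicate 1, 1 without SCC1 PBS replicate 3 or cetuximab replicate 1 and 5 without cetuximab replicate 2. SCC1 gave 5 calls when centred on the median (4 higher, 1 lower), 6 under quantile normalization and 5 with the GC trend removed (0 higher, 5 lower). SCC6 gave 1 without the filter, 1 when centred and 2 with the GC trend removed, and all lines gave 1 with a pseudocount of 5. The interaction gave 2 with a pseudocount of 5, 3 when centred, 2 under quantile normalization, 3 by edgeR, 3 by DESeq2 and 3 with the GC trend removed. With the replicate number as a block, SCC1 gave 5 calls and the interaction 2. Deviations of same-numbered libraries correlated at -0.04 to 0.03 over 8 pairs, and those of unlike-numbered libraries at -0.06 to 0.08. The values thus showed no pairing by number. They cannot show whether same-numbered libraries were handled together, which the labels do not give. The HOXA cluster sum under cetuximab was -0.06 (exact permutation p = 0.242) when centred and -0.13 to -0.08 with 1 library left out, that of HOXB 0.20 to 0.27, and the HOXC difference of SCC25 from SCC6 became -0.04 when centred. Requiring a peak to cover at least 50% of a region left 10 regions with a peak in SCC1 and 21 in SCC25. The causes of these changes were not tested. SCC1 had 2 PBS libraries and the lowest depth, so that a difference missing from it may be one not detectable at this depth.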

Other observations

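HOXC region 9 (chr12:54364358-54364557), in an intron of HOTAIR, had a peak in all 6 SCC6 libraries, with fold enrichments of 4.17 to 11.0, but 1 recovered read in each of them in the region table. Of 30919 regions with a peak in all SCC6 libraries, 1100 (3.56%) had at most 2 recovered reads in every one. It did not pass the filter on low values and so entered no line comparison of single regions, while its values in the table are part of the HOXC sums.

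HOXD region 1 (chr2:177063877-177064013), an intergenic region 10.5 kb from HOXD1, had its highest signal in SCC25, with 17.3, 19.5 and 14.4 in PBS libraries against 1.30 and 6.70 in SCC1 and 1.21, 6.02 and 3.26 in SCC6, and it was also too low to enter the line comparisons. SCC25 was 4.10-fold over SCC1 by its reads (counting interval 1.91 to 10.5) and 4.30-fold over SCC6 (2.39 to 8.39). HOXD region 10 (chr2:176953156-176953272), the outermost region of the 5′ end, was highest in SCC1, with 45.5 and 38.0 against 13.1 to 18.7 in SCC6 and 10.2 to 21.1 in SCC25. Peak calls went otherwise, with a peak there in 2 SCC6 libraries and in no SCC1 or SCC25 library.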
